A study of Mus musculus with 4 samples.

Results

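The transcripts of 10 checkpoint and costimulatory receptors were followed through every lymphocyte class found among cells sorted as group 3 innate lymphoid cells (ILC3s). The members were Cd28, Icos, Tnfrsf4, Tnfrsf18, Tnfrsf9, Cd226, Ctla4, Tigit, Pdcd1 and Lag3. They were chosen by name, and all 10 were present among the 21027 genes measured in both count tables. Small-intestinal lamina propria ILC3s came from Cxxc1flox/flox mice that carry a cre allele, aged 6 to 8 weeks, and were measured by BD Rhapsody single-cell RNA sequencing. Every sample carries this genotype, in which cre deletes the floxed Cxxc1, a subunit of a histone methyltransferase complex. The cre is not limited to ILC3s, so such mice are not a model of deletion in ILC3s alone. There was 1 group with 2 replicates and 2 sequencing libraries per replicate, and no Cxxc1-sufficient cells were analysed here. Cxxc1 transcripts were counted at 80.4 and 75.3 CPM (UMIs of the gene per 1000000 UMIs of the class) in CD4 T cells without Ifng or Il21 and 41.8 and 45.6 CPM in ILC3s, which without control cells checks nothing about the deletion. The comparisons below are therefore between classes of cells within these replicates.

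Lymphocytes read these receptors beside other signals. In T cells, CD28 and ICOS add a stimulatory signal to that of the antigen receptor, and CTLA-4 competes with CD28 for CD80 and CD86. TIGIT and CD226 share ligands of the nectin family and act in opposite directions, PD-1 (Pdcd1) and LAG-3 are inhibitory, and OX40 (Tnfrsf4), GITR (Tnfrsf18) and 4-1BB (Tnfrsf9) are receptors of the tumour necrosis factor family that signal through TRAF adaptors. ILC3s have no antigen receptor, respond to cytokines such as IL-23 and IL-1, and make IL-22 in the gut.

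The tables held 2077 cells of replicate 1 with 11939862 unique molecular identifiers (UMIs, counted molecules) and 4532 cells of replicate 2 with 12141164 UMIs. After filtering, 1906 and 4179 cells were used, with medians of 4200 and 2364 UMIs per cell. The captures shared 7 cell indices. Cells were put in classes by UMIs of a few defining genes. CD4 T cells with Ifng were 47 cells of replicate 1 and 308 of replicate 2, CD4 T cells with neither an Ifng nor an Il21 UMI were 79 and 514, CD8 or γδ T cells 22 and 344, and cells with type 2 genes 47 and 325. ILC3s were 323 and 1080 cells, or 16.9% and 25.8% of the cells, so most sorted cells did not pass the ILC3 gate. Plasma cells (155 and 13) and stromal cells (457 and 215) were kept as classes of other lineages, which show the background of RNA free in the suspension for genes they do not express. The summed level of 10 ILC3 markers was 732 and 973 CPM in CD4 T cells with neither cytokine, against 6794 and 7165 CPM in ILC3s, and 3665 and 4503 CPM in stromal cells. The ILC3 gate uses 4 of these genes, Il23r, Il1r1 and Kit among them. The summed level of 11 T cell markers was 7750 and 7320 CPM in those CD4 T cells, against 314 and 354 CPM in ILC3s, where Trac (absent by the gate), Cd5 and Cd6 were at 0 in both replicates. This list holds Cd3d, Cd3e, Cd3g and Trac, which the T cell gate counts and the ILC3 gate limits. Part of the gap is therefore set by the gates. Foxp3, the defining gene of regulatory T cells, had 0 and 1 UMIs in CD4 T cells with neither cytokine and none in CD4 T cells with Ifng. Its list of 6 regulatory T cell markers summed to 121 and 207 CPM in CD4 T cells with neither cytokine. The sum was 293 and 282 CPM in those with Ifng and 516 and 681 CPM in ILC3s. Whether regulatory T cells were among these CD4 T cells was not tested. Whether the replicates came from separate animals is not stated. P-values therefore rest on how differences between classes varied over these 2 replicates, which may be technical. That spread was drawn towards a trend shared over all genes, so a gene can pass although its replicates differ.

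Cd28, Ctla4 and Icos lie in a row on chromosome 1 (60716800 to 60773359, 60887000 to 60915832 and 60977927 to 61000320, plus strand, GENCODE annotation of GRCm38), with gaps of 113640 and 62094 bases between them. Tnfrsf4 (156013843 to 156016612) and Tnfrsf18 (156026164 to 156028895) are 9551 bases apart on chromosome 4, plus strand, and Tnfrsf9 (150914562 to 150946102) is on the same chromosome. Tigit is on chromosome 16 (43648867 to 43664146, minus strand), Pdcd1 on chromosome 1 (94038305 to 94052553, minus strand) and Lag3 on chromosome 6 (124904361 to 124911705, minus strand). Genes on the opposite strand overlap Tnfrsf18 (Gm16008) and Tnfrsf9 (Camta1), genes on the same strand overlap Ctla4 (Rpl18-ps1) and Icos (Gm37039), and the strand setting of the counting is not given in the sources used here. Of the 6 members that were higher in both CD4 T cells and type 2 cells than in ILC3s, 4 have a promoter entry in RefSeq (GRCm38.p6), from 250 bases before to 50 bases after the start site. Being called higher than in the same ILC3 sums does not show that these genes vary together. The 4 promoters are printed 5′ to 3′, with motif matches in capitals:
Ctla4 (GRCm38, chr1:60908775-60909074, plus strand): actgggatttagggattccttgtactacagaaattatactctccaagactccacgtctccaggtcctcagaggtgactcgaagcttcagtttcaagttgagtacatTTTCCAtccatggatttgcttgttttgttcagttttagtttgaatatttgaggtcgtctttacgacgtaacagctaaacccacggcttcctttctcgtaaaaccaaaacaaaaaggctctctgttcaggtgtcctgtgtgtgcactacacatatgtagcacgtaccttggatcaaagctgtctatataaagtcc
Tigit (GRCm38, chr16:43664135-43664434, minus strand): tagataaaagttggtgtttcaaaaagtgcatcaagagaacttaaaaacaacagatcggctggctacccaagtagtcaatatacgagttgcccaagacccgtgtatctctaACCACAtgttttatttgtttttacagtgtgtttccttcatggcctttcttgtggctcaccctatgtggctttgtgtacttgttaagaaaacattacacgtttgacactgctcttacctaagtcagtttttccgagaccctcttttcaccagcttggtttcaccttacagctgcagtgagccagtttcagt
Tnfrsf4 (GRCm38, chr4:156013445-156013744, plus strand): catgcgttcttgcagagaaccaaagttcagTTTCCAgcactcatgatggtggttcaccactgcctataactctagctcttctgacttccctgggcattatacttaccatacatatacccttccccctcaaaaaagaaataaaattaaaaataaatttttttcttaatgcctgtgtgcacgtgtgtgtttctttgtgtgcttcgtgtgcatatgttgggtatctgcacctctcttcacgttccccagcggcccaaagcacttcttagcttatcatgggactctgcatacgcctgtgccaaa
Tnfrsf18 (GRCm38, chr4:156026072-156026371, plus strand): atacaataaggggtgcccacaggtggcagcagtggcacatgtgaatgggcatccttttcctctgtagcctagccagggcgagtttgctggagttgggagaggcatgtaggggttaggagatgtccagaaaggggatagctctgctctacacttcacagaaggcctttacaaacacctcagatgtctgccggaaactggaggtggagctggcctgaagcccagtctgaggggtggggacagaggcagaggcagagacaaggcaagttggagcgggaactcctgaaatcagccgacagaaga
Motifs of 4 kinds were searched on both strands and none of their matches overlapped. The NFAT core TGGAAA, which 21.4% of the 32851 RefSeq mouse promoters hold, occurred in Ctla4 (its match starts at base -144 from the start site) and in Tnfrsf4 (-220). The Runx motif TGTGGT, held by 16.8% of promoters, occurred in Tigit (-140). The AP-1 motif TGANTCA (7.81% of promoters) and the NF-kB motif GGGNNNNNCC (50.8% of promoters) matched none of the 4. The Tnfrsf18 window held no match. The RefSeq starts of Ctla4 and Tnfrsf18 lie inside the gene spans given above, which begin further upstream. Those of Tigit and Tnfrsf4 lie upstream of their spans, and the whole Tnfrsf4 window ends before its span begins.

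CD4 T cells without Ifng or Il21 had more than 10-fold higher Cd28, Tigit and Tnfrsf4 than ILC3s, and higher Icos, Ctla4 and Tnfrsf18. Cd28, the main costimulatory receptor of T cells, had 562 and 553 CPM in these CD4 T cells (replicates 1 and 2), against 11.7 and 5.81 CPM in ILC3s. Stromal cells had 5.65 and 4.22 CPM, and the intervals of ILC3s and stromal cells overlapped. The log2 fold change was 6.21 (SE 0.27, edgeR adjusted p = 1.2e-27). Tigit, an inhibitory receptor, had 98.2 and 120 CPM in CD4 T cells, against 5.85 and 5.81 CPM in ILC3s (log2 fold change 4.33, SE 0.35, adjusted p = 3.6e-16). Tnfrsf4, which encodes OX40, had 75.9 and 101 CPM, against 5.01 and 4.59 CPM in ILC3s (4.34, SE 0.36, 1.1e-15). For each of these 3 genes both CD4 T cell values lay above both ILC3 values, with no overlap.

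Icos, the costimulatory receptor for ICOS ligand, had the most UMIs of the 10 members in CD4 T cells. Its level was 1259 and 1258 CPM in CD4 T cells, against 246 and 223 CPM in ILC3s, while stromal cells had 25.6 and 37.2 CPM. The log2 fold change was 2.50 (SE 0.22, edgeR adjusted p = 1.1e-14). Ctla4, the inhibitory counterpart of Cd28, had 692 and 622 CPM in CD4 T cells, against 145 and 202 CPM in ILC3s and 24.1 and 32.1 CPM in stromal cells (1.94, SE 0.20, 3.7e-12). The ILC3 values of both genes lay between those of CD4 T cells and stromal cells, with no overlap. Tnfrsf18, which encodes GITR, differed least among the genes that passed: 156 and 151 CPM in CD4 T cells, against 107 and 93.6 CPM in ILC3s (0.70, SE 0.22, 0.013). Its call was lost with DESeq2 (adjusted p = 0.146), without the replicate block (0.0617) and with a T cell gate of 5 UMIs (0.0579).

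The other 4 members did not pass in that comparison, with adjusted p from 0.0928 for Cd226 to 0.509 for Pdcd1. Cd226, the activating partner of Tigit, had 53.6 and 79.7 CPM in CD4 T cells, against 39.3 and 55.4 CPM in ILC3s (95% interval of the log2 fold change 0.07 to 1.14). Tnfrsf9, which encodes 4-1BB, had 8.93 and 38.5 CPM, against 46.8 and 48.6 CPM in ILC3s (interval -1.29 to 0.09). Pdcd1 had 8.93 and 11.4 CPM, against 10.9 and 20.2 CPM, and Lag3 had 0 and 12.3 CPM, against 10.9 and 18.7 CPM. Pdcd1 and Lag3 were low in every class of lymphocytes with at least 10 cells in both replicates, where no value exceeded 40.9 CPM for Pdcd1 or 37.5 CPM for Lag3 before ILC3s were split. In all, 6 of 10 members were higher in CD4 T cells and none was lower, where 25.7% of the 8562 genes tested were called, 11.6% higher and 14% lower. The median log2 fold change was 1.32 over the members and -0.01 over all genes.

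**Figure D1:**
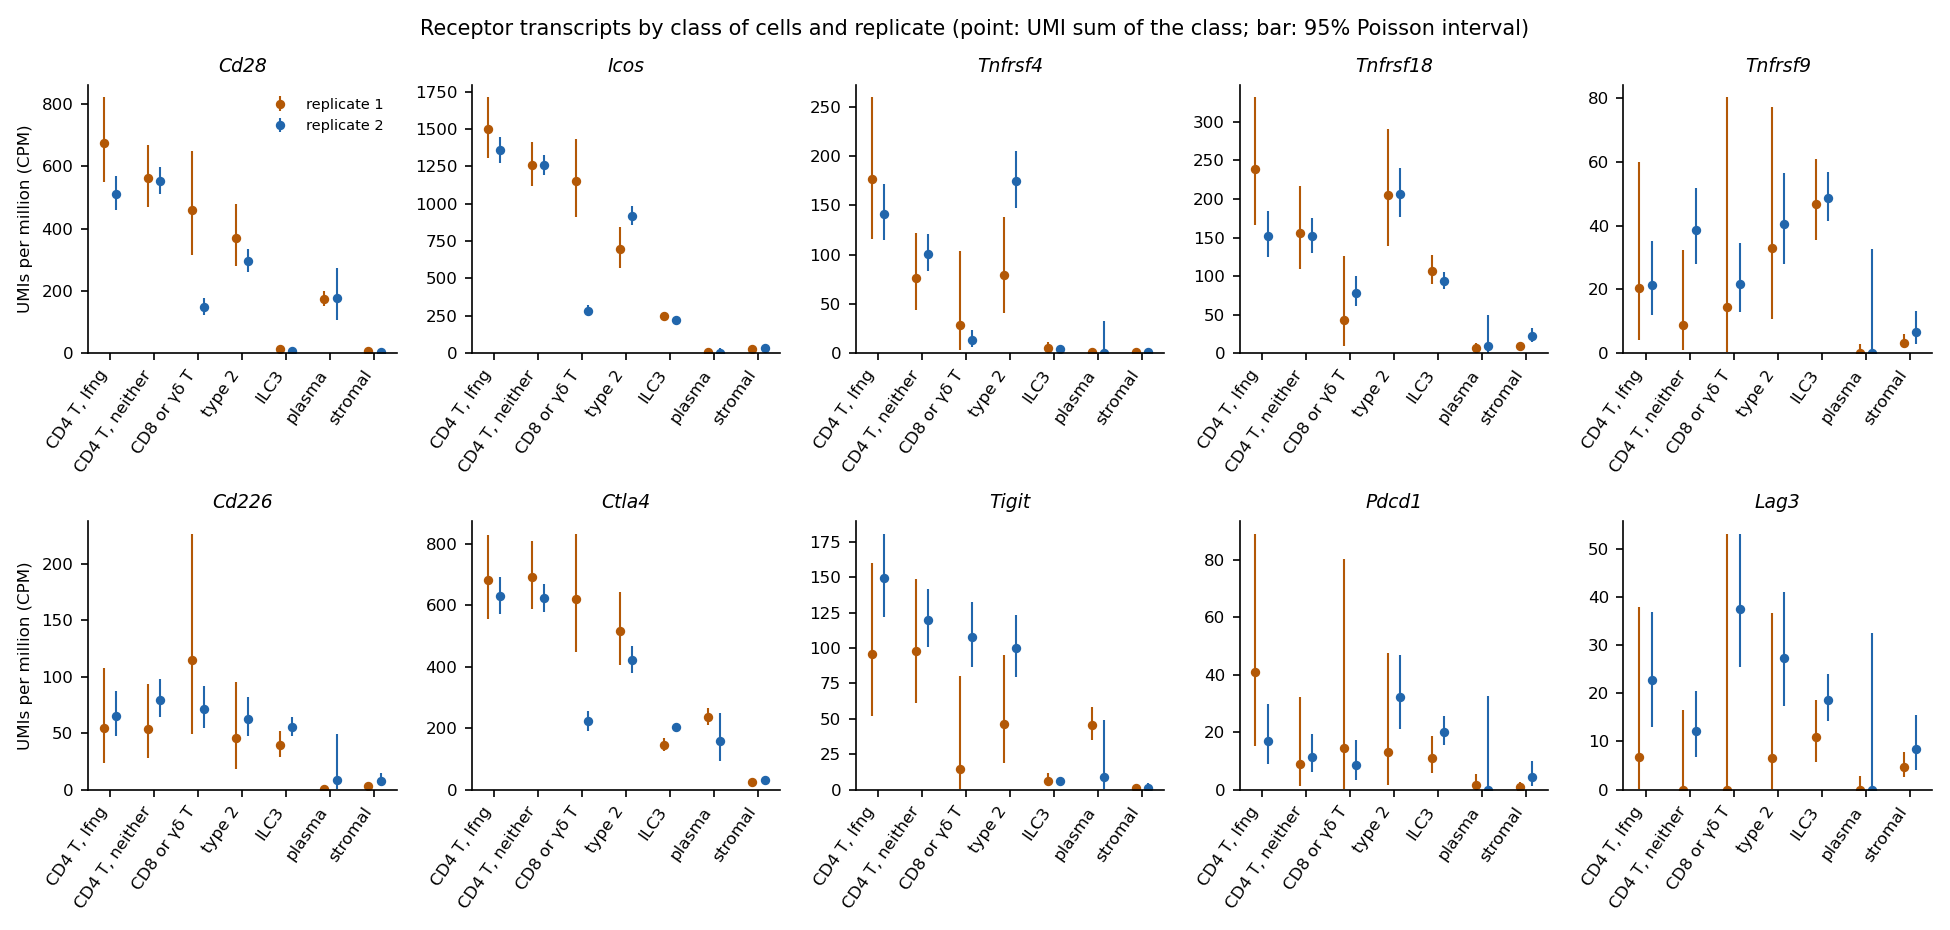
Level of each receptor transcript (CPM, linear axis, own scale per panel) by class of cells, replicate 1 in brown and replicate 2 in blue, with 95% Poisson intervals that cover counting error only. Cd28, Tigit and Tnfrsf4 are at or below 11.7 in ILC3s, whereas Icos and Ctla4 are at 145 or more there in both replicates.

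With every cell thinned to 1000 UMIs, 35.4% and 38.3% of CD4 T cells without Ifng or Il21 had a Cd28 UMI, against 0.310% and 0.468% of ILC3s and 0.438% and 1.44% of stromal cells. Before thinning the shares were 69.6% and 56.0% of CD4 T cells, 3.41% and 1.67% of ILC3s, and 3.94% and 2.33% of stromal cells. The Cd28 shares of ILC3s were below those of stromal cells while the CPM were above, so no order between these classes is read from them. Icos was detected in 69.6% and 61.5% of the thinned CD4 T cells, against 16.7% and 19.1% of ILC3s and 3.28% and 5.26% of stromal cells. Before thinning it was detected in 81.0% and 77.8% of CD4 T cells, 42.7% and 38.3% of ILC3s and 12.5% and 13.95% of stromal cells. After thinning, cells with at least 3 of the 10 members detected made up 17.7% and 24.0% of these CD4 T cells, 36.2% and 28.6% of CD4 T cells with Ifng, 13.6% and 7.58% of CD8 or γδ T cells, 10.6% and 21.8% of type 2 cells, 0.310% and 1.22% of ILC3s, and none of the 457 and 209 stromal cells, which allows shares of up to 0.656% and 1.44% by a limit of 3 cells. The thinned sets left out 0 and 18 shallower CD4 T cells and 0 and 12 ILC3s.

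Type 2 cells, defined by UMIs of Il5, Il13, Il17rb, Il1rl1 and Calca, were higher than ILC3s in Cd28, Tnfrsf4, Tigit, Icos, Ctla4 and Tnfrsf18. Tnfrsf4 had 79.2 and 175 CPM in type 2 cells, against 5.01 and 4.59 CPM in ILC3s (log2 fold change 5.01, SE 0.35, edgeR adjusted p = 2.3e-18). Cd28 had 370 and 296 CPM, against 11.7 and 5.81 CPM (5.46, SE 0.28, 4.6e-24), and Tigit had 46.2 and 99.9 CPM, against 5.85 and 5.81 CPM (3.91, SE 0.37, 2.8e-13). Both type 2 values of each gene were above both ILC3 values. Icos had 700 and 919 CPM, against 246 and 223 CPM (1.94, SE 0.22, 1.3e-10), Ctla4 had 515 and 421 CPM, against 145 and 202 CPM (1.46, SE 0.21, 7e-08), and Tnfrsf18 had 205 and 207 CPM, against 107 and 93.6 CPM (1.16, SE 0.23, 5.9e-05). None of the 10 was lower, where 17.9% of all genes were called, 8.55% higher and 9.37% lower. This comparison and those of CD4 T cells and of CD8 or γδ T cells share the same ILC3 sums, so they are not independent of each other.

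Most type 2 cells passed the T cell gate as well: 34 of 47 in replicate 1 and 272 of 325 in replicate 2, against 12 and 37 that lay below it, with no Trac UMI and at most 1 CD3 UMI. The summed level of 11 T cell markers was 5941 and 6446 CPM in type 2 T cells, against 1275 and 1379 CPM in the cells below the gate, so these were not free of T cell transcripts. Cd3d, Cd3e, Cd3g and Trac of this list define the split, so part of that gap was fixed in advance. Cd28 had 497 and 320 CPM in type 2 T cells, against 0 and 60.5 CPM (0 and 5 UMIs) in type 2 cells below the gate (log2 fold change 3.33, SE 0.52, edgeR adjusted p = 6.1e-06). Ctla4 had 647 and 457 CPM, against 58.0 and 181 CPM (2.05, SE 0.38, 0.00015), Icos had 842 and 993 CPM, against 261 and 435 CPM (1.50, SE 0.31, 0.00084), and Tnfrsf4 had 106 and 190 CPM, against 0 and 48.4 CPM (2.48, SE 0.63, 0.0117). Each of these 4 genes was higher in type 2 T cells in both replicates. In sum, 10 ILC3 markers had 426 and 679 CPM in type 2 T cells, against 2696 and 3048 CPM in the cells below the gate, and its part in the differences was not tested. Tnfrsf18 had 213 and 204 CPM in type 2 T cells, against 174 and 206 CPM below the gate (95% interval of the log2 fold change -0.46 to 1.03). This comparison was added after the data were seen; 4 of 10 members were called, all higher, where 2.79% of its 7360 genes were, 1.49% higher and 1.29% lower, and the median log2 fold change was 2.27 over the members and 0.18 over all genes. The 4 calls fell to 2 with DESeq2, to 2 without the replicate block and to 1 when cells with other-lineage UMIs were kept.

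Set against CD4 T cells without Ifng or Il21, type 2 cells were lower in Cd28 (log2 fold change -0.76, SE 0.21, edgeR adjusted p = 0.0229), a call that was lost with DESeq2, without the block, with other-lineage cells kept and without cells that had a Foxp3 or Il2ra UMI. No other member passed, with Icos at -0.56 (adjusted p = 0.217) and Ctla4 at -0.49 (0.318), where 3.01% of genes were called, 2.3% higher and 0.712% lower. Tnfrsf4 (interval 0.11 to 1.22), Tnfrsf18 (-0.02 to 0.93) and Pdcd1 (0.16 to 2.57) had estimates above 0 in type 2 cells with adjusted p from 0.294 to 0.51. This contrast too was added after the data were seen.

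**Figure D2:**
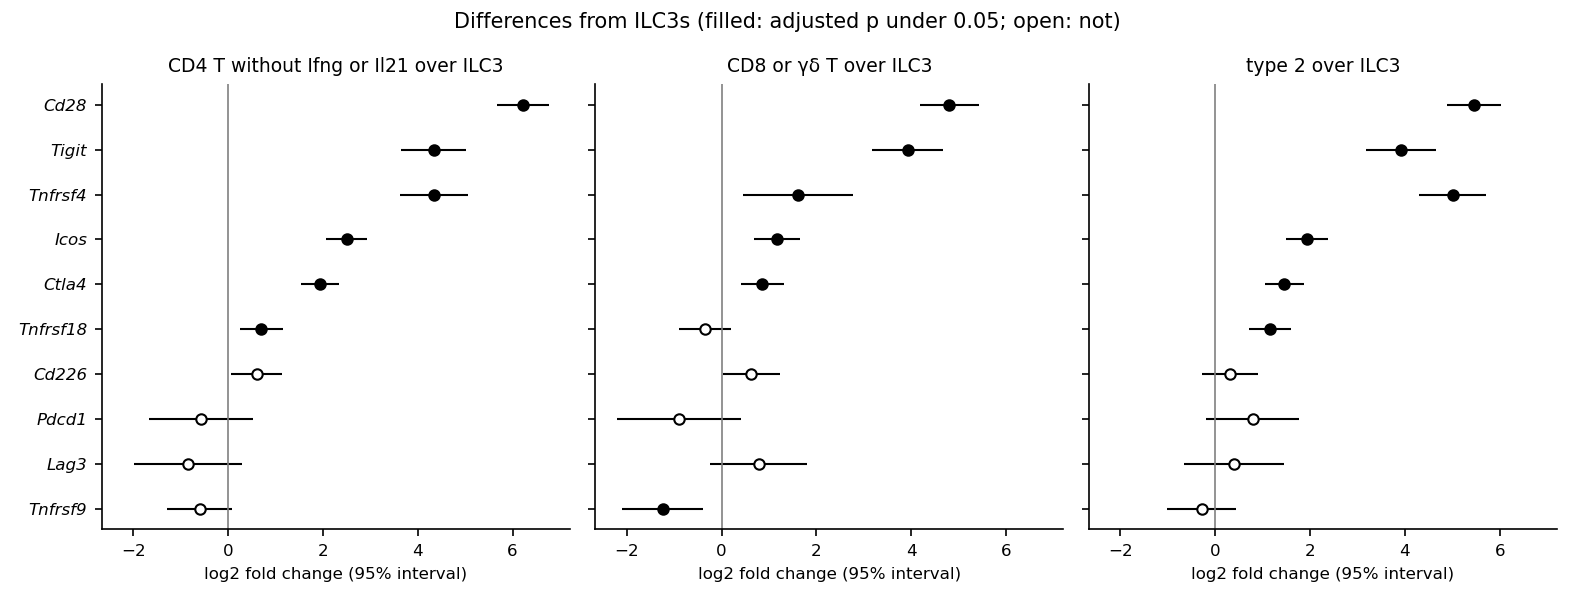
Log2 fold change (horizontal axis, 95% interval) of each receptor in CD4 T cells without Ifng or Il21, CD8 or γδ T cells and type 2 cells over ILC3s, with filled points for adjusted p under 0.05. Cd28, Tigit and Tnfrsf4 have the largest changes in all 3 panels, and Tnfrsf9 is the 1 filled point left of 0, in CD8 or γδ T cells.

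CD8 or γδ T cells were higher than ILC3s in Cd28, Tigit, Icos, Ctla4 and Tnfrsf4 and lower in Tnfrsf9, with replicates that differed from each other. Cd28 had 461 and 147 CPM, against 11.7 and 5.81 CPM in ILC3s (log2 fold change 4.80, SE 0.31, edgeR adjusted p = 7.7e-20). Tigit had 14.4 CPM from 1 UMI in replicate 1 and 108 CPM in replicate 2, against 5.85 and 5.81 CPM (3.92, SE 0.37, 5.1e-13). Icos had 1151 and 285 CPM, against 246 and 223 CPM (1.17, SE 0.24, 0.00012), and Ctla4 had 619 and 222 CPM, against 145 and 202 CPM (0.86, SE 0.23, 0.003). In replicate 2 alone, the Ctla4 interval of CD8 or γδ T cells (191 to 257 CPM) overlapped that of ILC3s (187 to 218 CPM).

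Tnfrsf4 had 28.8 and 13.3 CPM in CD8 or γδ T cells, against 5.01 and 4.59 CPM in ILC3s (log2 fold change 1.61, SE 0.58, edgeR adjusted p = 0.0369). Tnfrsf9 was the only member of the 10 called lower than in ILC3s here, at 14.4 and 21.7 CPM, against 46.8 and 48.6 CPM (-1.24, SE 0.43, 0.0275). Both calls were lost with DESeq2 (adjusted p = 0.102 and 0.172) and without the block (0.0598 and 0.0897). In all, 5 members were higher and 1 was lower, where 22.4% of genes were called, 9.55% higher and 12.8% lower. After thinning to 1000 UMIs and gating again, Cd28 and Tigit remained called and the other 4 did not, with Icos at 0.24 (adjusted p = 0.695).

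Against CD4 T cells without Ifng or Il21, CD8 or γδ T cells had lower fitted levels of Tnfrsf4, Cd28, Icos, Ctla4 and Tnfrsf18, in a comparison added after the data were seen. Tnfrsf4 had 28.8 and 13.3 CPM in CD8 or γδ T cells, against 75.9 and 101 CPM in CD4 T cells (log2 fold change -2.73, SE 0.43, edgeR adjusted p = 7.7e-06), and kept its call with DESeq2 and without the block. Cd28 was at -1.41 (SE 0.23, 2.3e-05), Icos at -1.33 (SE 0.24, 0.00013), Ctla4 at -1.09 (SE 0.23, 0.00157) and Tnfrsf18 at -1.05 (SE 0.28, 0.026). These 5 of 10 members stand beside 1.95% of all genes called, 0.923% higher and 1.03% lower. Icos, Cd28 and Ctla4 rested on replicate 2: with that replicate left out, the log2 ratios of CPM in replicate 1 were -0.12, -0.27 and -0.15, against -2.14, -1.90 and -1.48 in replicate 2. With DESeq2 or without the block 1 member passed, and none did when cells with other-lineage UMIs were kept.

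Trdc, the constant gene of the δ chain of the γδ receptor, had a UMI in 16 of the 22 CD8 or γδ T cells of replicate 1 and in 246 of the 344 of replicate 2. Icos stood at 1394 CPM (95% interval 1089 to 1759) in the Trdc cells of replicate 1 and 262 CPM (222 to 307) in those of replicate 2, and the intervals did not overlap. Cells with Cd8a or Cd8b1 and no Trdc had 485 CPM (222 to 921) and 343 CPM (272 to 426) of Icos, which overlap. Cd28 had 569.5 and 108 CPM in the Trdc cells, while Lag3 had 0 CPM (0 to 72.4) and 44.0 CPM (28.7 to 64.4). The summed level of 6 markers of natural killer cells or ILC1s was 8434 and 10765 CPM in CD8 or γδ T cells. It was 2134 and 1277 CPM in CD4 T cells without Ifng or Il21. Of the 6, Eomes and Klrb1c were at 0 in CD8 or γδ T cells of replicate 1, and all 6 had a UMI in replicate 2. Gzma is also in the marker list of CD8 or γδ T cells, so the sum is not specific to natural killer cells or ILC1s. The part of this sum in these differences was not tested.

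**Figure D3:**
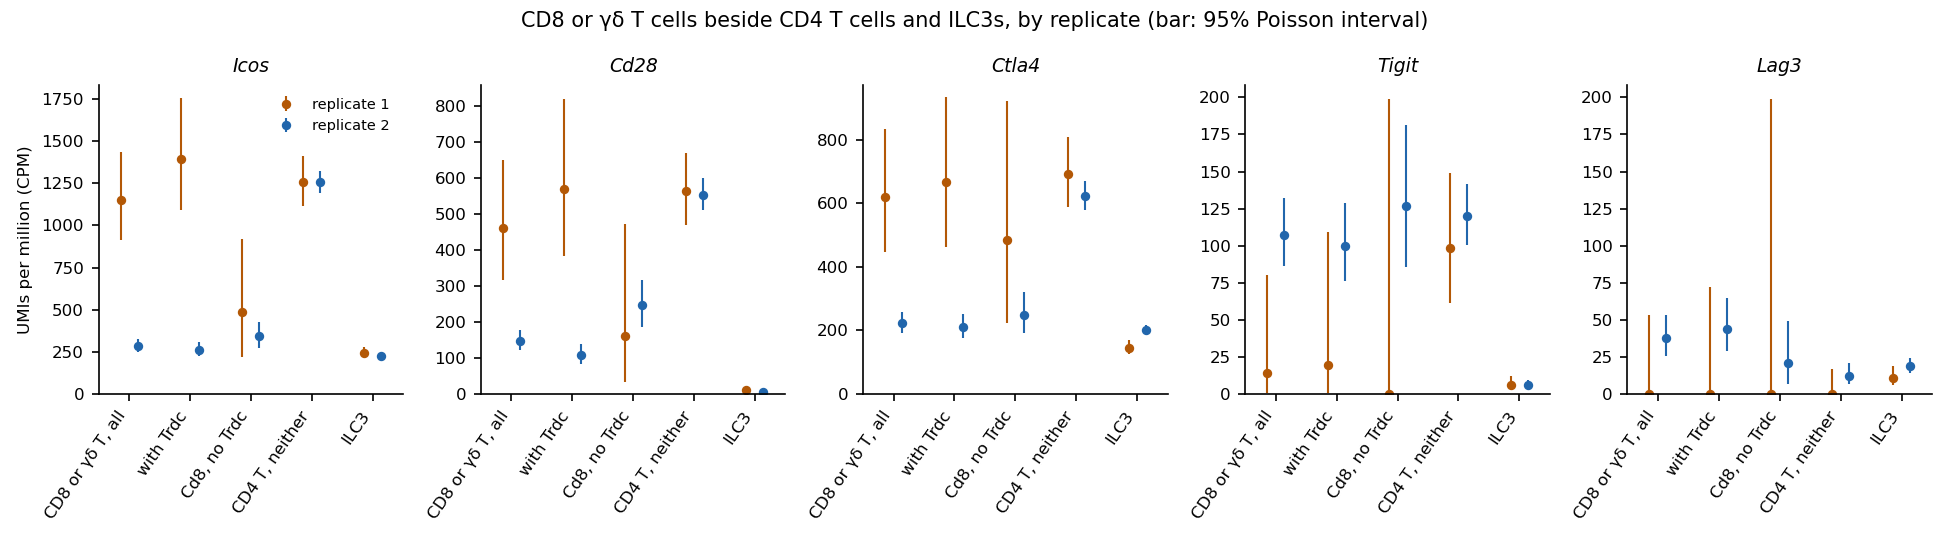
Levels (CPM) of Icos, Cd28, Ctla4, Tigit and Lag3 in all CD8 or γδ T cells, in those with and without a Trdc UMI, in CD4 T cells with neither cytokine and in ILC3s, by replicate with 95% Poisson intervals. Within Trdc cells, Icos is at 1394 in replicate 1 and 262 in replicate 2.

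No member passed the test between CD4 T cells with a UMI of Ifng, the cytokine of type 1 helper cells, and CD4 T cells without Ifng or Il21. Their median depth was 2536 and 2142.5 UMIs, against 2455 and 2022 UMIs. Ctla4 had 682 and 630 CPM in Ifng cells, against 692 and 622 CPM (95% interval of the log2 fold change -0.43 to 0.38), Cd28 had 675 and 512 CPM, against 562 and 553 CPM (-0.39 to 0.41), and Icos had 1501 and 1358 CPM, against 1259 and 1258 CPM (-0.27 to 0.56). These intervals exclude a 2-fold difference in either direction between the classes as gated. A cell that makes Ifng but has no Ifng UMI counted falls in the class with neither cytokine. The difference between cells that do and do not express Ifng is therefore not measured. Tnfrsf4 had 177 and 141 CPM in Ifng cells, against 75.9 and 101 CPM (0.69, interval 0.12 to 1.25, unadjusted p = 0.0187, edgeR adjusted p = 0.999), higher in both replicates but not past the threshold. Pdcd1 had 40.9 and 17.1 CPM, from 6 and 12 UMIs, against 8.93 and 11.4 CPM (interval -0.26 to 2.34). None of the 10 members was called by edgeR, 1 had an unadjusted p under 0.05, and DESeq2 called none. Among all genes 0.035% were called, which is 3 genes, and 294 had an unadjusted p under 0.05.

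CD4 T cells with Il21, a cytokine of T follicular helper cells, were 2 and 25 cells, and those with both Ifng and Il21 were 3 and 46, too few in replicate 1 for a test. Of 6 T follicular helper markers, Il21 among them, 3 and 4 had a UMI in cells with Il21 alone, where Cxcr5 and Bcl6 were at 0. In cells with both cytokines 3 and 5 had one, with Cxcr5 at 0 in both replicates. Whether any of these were T follicular helper cells was not tested. In replicate 2, cells with both cytokines had 1207 CPM of Ctla4, against 622 CPM in CD4 T cells with neither, a ratio of 1.94 (95% counting interval 1.59 to 2.35). Tigit had 285 CPM, against 120 CPM (ratio 2.38, 1.54 to 3.55), Tnfrsf4 had 257 CPM, against 101 CPM (2.55, 1.61 to 3.90), and Pdcd1 had 47.5 CPM from 5 UMIs, against 11.4 CPM (4.18, 1.17 to 12.5). Cd28 had 494 CPM, against 553 CPM (0.893, 0.660 to 1.19), and Icos 1426 CPM, against 1258 CPM (1.13, 0.951 to 1.34). The 3 such cells of replicate 1 had 19 Ctla4, 4 Tigit, 6 Tnfrsf4 and 0 Pdcd1 UMIs in 13616 UMIs. Cells with Il21 alone had 1833 CPM of Icos in replicate 2, against 1258 CPM (1.46, 1.18 to 1.79), and 898 CPM of Ctla4, against 622 CPM (1.44, 1.06 to 1.93), while their Pdcd1 and Lag3 counts were 0. These intervals cover counting error only and describe 1 replicate, so none of the ratios is a difference shown between classes.

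**Figure D4:**
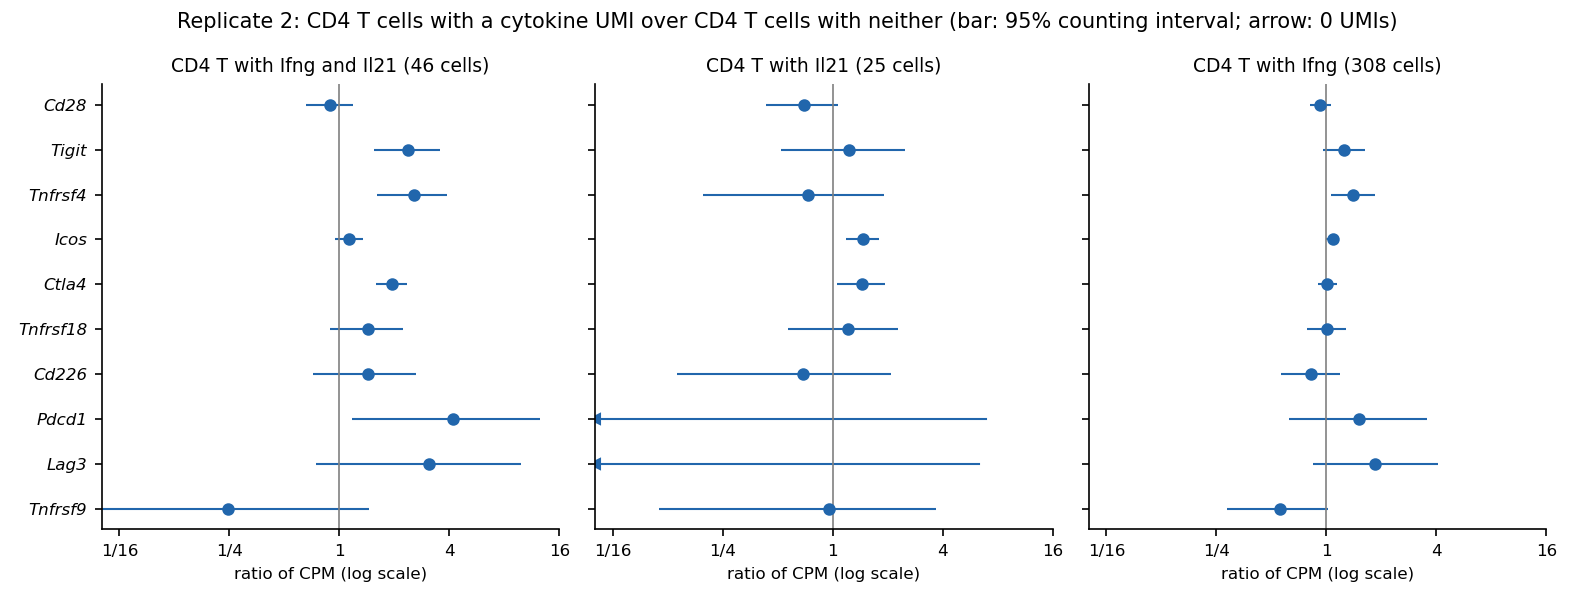
Ratio of CPM (log axis) in replicate 2 for CD4 T cells with both Ifng and Il21, with Il21 and with Ifng, over CD4 T cells with neither cytokine, with 95% counting intervals; arrows mark 0 UMIs. With both cytokines, Ctla4, Tigit, Tnfrsf4 and Pdcd1 lie right of 1 with intervals that exclude it, and Cd28 does not.

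Within ILC3s, 3 receptors differed between cells with Ncr1, which encodes NKp46, and cells with Ccr6, the chemokine receptor of lymphoid-tissue-inducer-like cells. Pdcd1 had 0 and 2 UMIs (0 and 5.35 CPM) in the 51 and 122 Ncr1 cells, against 8 and 25 UMIs (65.3 and 54.9 CPM) in the 27 and 123 Ccr6 cells. The ratio of pooled levels was 0.0620 (95% counting interval 0.00721 to 0.243, edgeR adjusted p = 0.00462). Ctla4 had 141 and 211 CPM in Ncr1 cells, against 302 and 349 CPM in Ccr6 cells (log2 fold change -0.84, SE 0.22, adjusted p = 0.0134). A Ctla4 UMI was found in 33.3% and 37.7% of Ncr1 cells, against 40.7% and 41.5% of Ccr6 cells, and after thinning to 1000 UMIs in 17.6% and 18.03%, against 18.5% and 21.3%. Tnfrsf18 had 178 and 137 CPM, against 24.5 and 79.0 CPM (1.20, SE 0.34, 0.029). By CPM, the 2 replicates lay on the same side for all 3 genes and the classes did not overlap. After thinning, 25.5% and 8.20% of Ncr1 cells had a Tnfrsf18 UMI, against 0% and 6.56% of Ccr6 cells. A Pdcd1 UMI was left in 0 and 1 Ncr1 cells, against 2 and 4 Ccr6 cells. The 95% intervals of the thinned shares overlapped in both replicates for Pdcd1 and in replicate 2 for Tnfrsf18.

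Icos had 539 and 286 CPM in Ncr1 cells, against 253 and 235 CPM in Ccr6 cells (95% interval of the log2 fold change 0.18 to 1.11, edgeR adjusted p = 0.11), and Cd226 had 89.0 and 74.9 CPM, against 8.16 and 48.3 CPM (0.27 to 2.02, 0.149). Tnfrsf9 had 52.3 and 45.5 CPM, against 40.8 and 48.3 CPM (-0.82 to 0.91), and Lag3 had 15.7 and 42.8 CPM, against 32.6 and 10.98 CPM (-0.52 to 2.62). Tigit, Tnfrsf4 and Cd28 did not pass the filter on low counts. Of 7 members tested, 1 was higher in Ncr1 cells and 2 were lower, where 5.13% of 6156 genes were called, 2.36% higher and 2.78% lower. The calls depended on the setting: none of the 3 held with DESeq2 (adjusted p from 0.0586 to 0.236), with other-lineage cells kept (0.0537 to 0.369) or with ILC3s limited to cells with no CD3 or T cell receptor UMI (0.058 to 0.576), and Pdcd1 alone held without the block (0.0456). Without cells that had a Foxp3 or Il2ra UMI, Ctla4 (0.689) and Tnfrsf18 (0.718) were lost and Pdcd1 did not pass the filter on low counts. The summed level of 11 T cell markers was 570 and 546 CPM in Ncr1 cells, against 229 and 206 CPM in Ccr6 cells, with Trac, Cd5 and Cd6 at 0 in both classes. Its part in the differences was not tested.

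**Figure D5:**
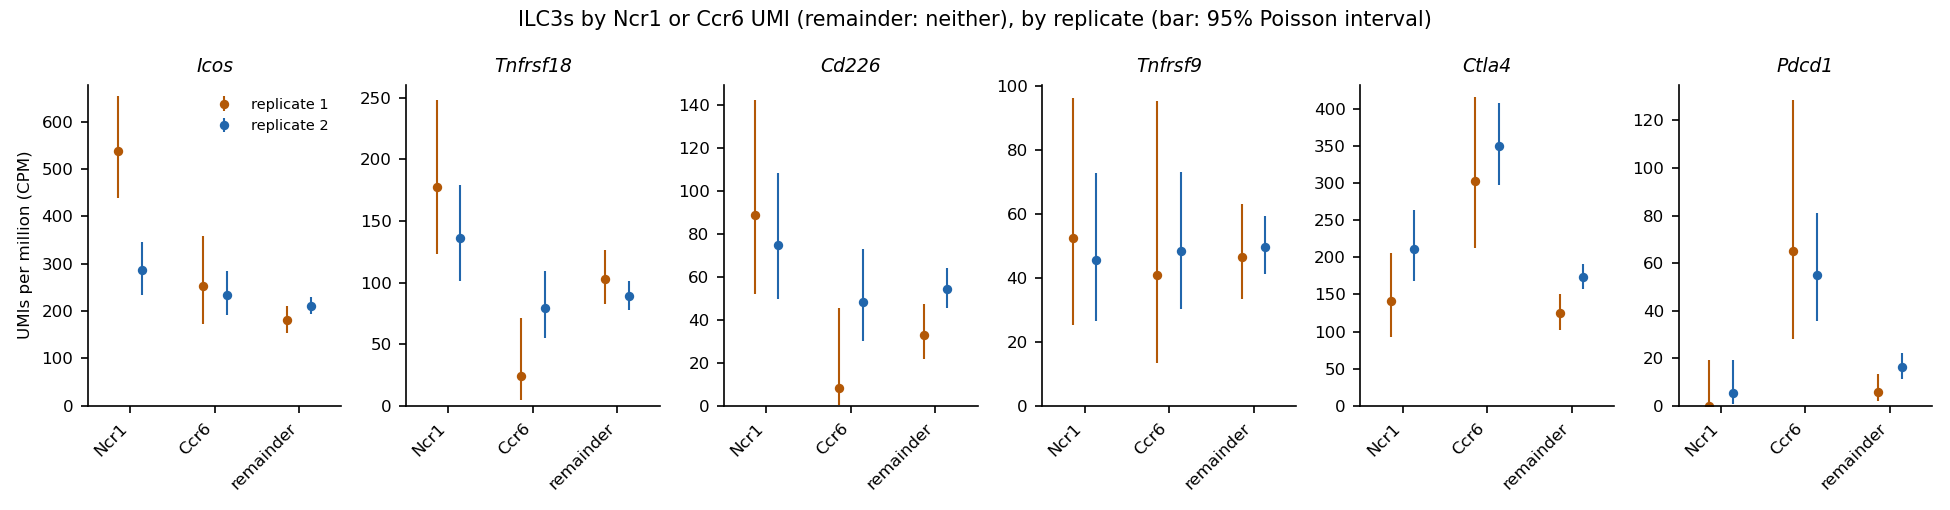
Levels (CPM) of 6 receptors in ILC3s with Ncr1, with Ccr6 and with neither (remainder), by replicate with 95% Poisson intervals. Pdcd1 and Ctla4 are highest in Ccr6 cells and Tnfrsf18 is highest in Ncr1 cells in both replicates.

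Other receptors of the same kind, taken from a list of 19, divided in the comparison of CD4 T cells without Ifng or Il21 with ILC3s: of 15 tested, 8 were higher and 3 lower, beside 11.6% of all genes higher and 14% lower, with a median log2 fold change of 1.31 over the list. Cd40lg, the helper signal to B cells, is in this list and among the 8 although it encodes a ligand and not a receptor. It had 121 and 273 CPM in CD4 T cells, against 0 and 0.917 CPM in ILC3s (0 and 3 UMIs, edgeR adjusted p = 9.6e-25). Cd5 had 8.93 and 30.6 CPM, against no UMI in ILC3s (1.3e-08). On the other side, Cd244a (2B4) had 4.46 and 7.88 CPM in CD4 T cells, against 62.7 and 67.9 CPM in ILC3s (log2 fold change -3.09, SE 0.43, 3.1e-08), and Tnfrsf25 (DR3) had 13.4 and 17.5 CPM, against 50.1 and 50.2 CPM (-1.59, SE 0.42, 0.0025). Within ILC3s, Cd244a was higher in Ncr1 than in Ccr6 cells (62.8 and 115 CPM, against 24.5 and 26.3 CPM; 1.89, SE 0.42, 0.0039), and so was Cd160 (1.10, SE 0.20, 0.00037). Tnfrsf25 lost its call with DESeq2 (adjusted p = 0.0662) and with other-lineage cells kept (0.0926). In the ILC3 subsets Cd244a lost its call with DESeq2 (0.192) and Cd160 without cells that had a Foxp3 or Il2ra UMI (0.0682).

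Of 22 signalling genes below the receptors, 10 were higher in CD4 T cells than in ILC3s, 1 was lower and 11 did not pass, beside the same 11.6% and 14% of all genes, with a median log2 fold change of 0.56 over the list and -0.01 over all genes. Plcg1, the phospholipase of T cell activation, had 31.2 and 62.2 CPM in CD4 T cells, against 1.67 and 1.22 CPM in ILC3s (log2 fold change 5.24, SE 0.51, edgeR adjusted p = 6.8e-13), and the adaptor Lat, which is also in the T cell marker list, had 656 and 521 CPM, against 31.8 and 56.3 CPM (3.70, SE 0.21, 3e-22). Nfkb1, a subunit of NF-kB, was the lower one, at 371 and 401 CPM, against 705 and 570 CPM (-0.63, SE 0.17, 0.0036). Of 15 transcription factors tested, 4 were higher, among them Irf4 at 31.2 and 56.0 CPM, against 9.19 and 7.34 CPM (2.70, SE 0.39, 7.2e-08), and 6 were lower, among them Ikzf2 at 53.6 and 91.9 CPM, against 205 and 248 CPM (-1.40, SE 0.26, 1.7e-05), and Nr4a2 at 259 and 244 CPM, against 670 and 632 CPM (-1.34, SE 0.19, 7e-08). With other-lineage cells kept the calls of Nfkb1 (adjusted p = 0.187), Irf4 (0.0536), Ikzf2 (0.0719) and Nr4a2 (0.0526) were lost, and Nfkb1 was lost after thinning as well (0.106).

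Over ILC3s, CD8 or γδ T cells were higher in 7 and lower in 2 of the 15 genes tested from the list of other receptors (median 0.50). Type 2 cells were higher in 6 and lower in 3 of them (median 1.11). Cd40lg is counted among the higher genes of both. Of all genes, 9.55% were higher and 12.8% lower in CD8 or γδ T cells, and 8.55% were higher and 9.37% lower in type 2 cells, which is the background for the counts that follow too. Cd2, an adhesion receptor, had 101 and 132 CPM in CD8 or γδ T cells, against 1.67 and 2.75 CPM in ILC3s (log2 fold change 5.64, SE 0.36, edgeR adjusted p = 9.3e-20). Cd160 had 85.8 and 71.3 CPM in type 2 cells, against 348 and 371 CPM in ILC3s (-2.16, SE 0.24, 8.7e-11). Among the 22 signalling genes, 9 were higher and 2 lower in CD8 or γδ T cells, and 11 were higher and 2 lower in type 2 cells. Lck, the kinase next to CD4 and CD8, had 777 and 759 CPM in CD8 or γδ T cells, against 69.4 and 73.7 CPM in ILC3s (3.41, SE 0.19, 3.6e-22). Among the 15 transcription factors, 4 were higher and 6 lower in CD8 or γδ T cells, and 4 were higher and 3 lower in type 2 cells. Irf4 had 0 and 30.2 CPM in CD8 or γδ T cells, against 9.19 and 7.34 CPM in ILC3s (1.78, SE 0.49, 0.0041), so its direction differed between the replicates and its call was lost with DESeq2 (0.105), with other-lineage cells kept (0.22) and with a CD8 or γδ gate of 2 UMIs (0.0592). It had 72.6 and 92.7 CPM in type 2 cells (3.53, SE 0.37, edgeR adjusted p = 1.7e-11). No gene of the 4 lists was called between CD4 T cells with Ifng and those with neither cytokine.

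Of 13 ligand genes of the members, 6 passed the filter. None differed between CD4 T cells without Ifng or Il21 and ILC3s by edgeR, with a median log2 fold change of -0.29. Type 2 cells were higher than ILC3s in Cd86, a ligand of CD28 and CTLA-4 (26.4 and 26.2 CPM, against 12.5 and 5.50 CPM; 1.89, SE 0.54, edgeR adjusted p = 0.0077), and in Pdcd1lg2, which encodes PD-L2 (46.2 and 44.0 CPM, against 12.5 and 20.8 CPM; 1.41, SE 0.42, 0.0099). Both were lost with DESeq2 (adjusted p = 0.0551 and 0.123) and with other-lineage cells kept (0.656 and 0.172). Icosl, the ligand of ICOS, was lower in CD8 or γδ T cells than in ILC3s (0 and 4.83 CPM, against 33.4 and 39.1 CPM; -3.05, SE 0.63, 0.00014).

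Plasma cells had 174 and 176 CPM of Cd28, a receptor that plasma cells are known to carry, against 11.7 and 5.81 CPM in ILC3s (log2 fold change 5.38, SE 0.32, edgeR adjusted p = 1.1e-36). Their Tigit was 45.6 and 8.81 CPM (60 and 1 UMIs), against 5.85 and 5.81 CPM (4.13, SE 0.43, 3.8e-16). After TMM scaling the fitted folds were above the ratios of pooled CPM, at 41.6-fold against 23.6-fold for Cd28 and 17.6-fold against 7.33-fold for Tigit. Icos had 5.32 and 0 CPM in plasma cells, against 246 and 223 CPM in ILC3s (-4.60, SE 0.46, 2.1e-17), and Tnfrsf18 had 6.84 and 8.81 CPM, against 107 and 93.6 CPM (-2.79, SE 0.45, 3.8e-08). Lag3 and Tnfrsf9 had no UMI in plasma cells and 74 and 215 UMIs in ILC3s. With a floor of 3 counts set for the plasma cells, their pooled CPM were 7.89-fold and 22.9-fold lower there, before TMM scaling. Without this floor, the counting intervals of the pooled ratios began at 6.26-fold and 18.5-fold lower. The intervals of the fitted log2 fold change were -9.77 to -1.78 for Lag3 and -10.7 to -5.28 for Tnfrsf9. Of the 10 members 3 were higher and 5 lower, where 35.5% of 8828 genes were called, 16.1% higher and 19.5% lower.

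Ctla4 had 236 and 159 CPM in plasma cells, against 145 and 202 CPM in ILC3s, so by CPM its direction differed between the replicates. Its fitted log2 fold change was 1.27 (SE 0.24, edgeR adjusted p = 2.3e-06) after TMM scaling. Replicate 2 held 13 plasma cells and 18 of their Ctla4 UMIs. The summed level of 8 B or plasma cell markers was 2040 and 201 CPM in CD4 T cells with neither cytokine and 1707 and 217 CPM in ILC3s, higher in replicate 1 in both classes, and its part in the levels above was not tested. This comparison was added after the data were seen.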

How the data were processed

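The deposited tables hold counts of molecules (UMIs) per cell and gene, made by the authors with the BD WTA Multiplex Rhapsody pipeline 1.8 on GRCm38, per the file headers. HISAT2 2.0.5 and Bowtie2 are named in the submitters' processing notes, without their role. Cells were assigned to replicates by sample tag; 349 and 572 multiplets and 508 and 1128 undetermined cells were left out. Of 2077 and 4532 tagged cells, 1945 and 4185 had at least 300 genes and at most 25% mitochondrial UMIs. Scrublet in scanpy 1.11.5 removed 39 (2.01%) and 6 (0.143%), so doublets in replicate 2 must be taken as present. Genes missing from one table held 0.0343% and 0.0105% of UMIs.

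Cells with 3 or more UMIs of plasma or B cell, stromal or myeloid genes were kept out of the lymphocyte classes. Type 2 cells had at least 2 UMIs over Il5, Il13, Il17rb, Il1rl1 and Calca, T cells at least 3 over Cd3d, Cd3e, Cd3g and Trac, and ILC3s at least 2 over Il23r, Il1r1, Kit and 1 more gene that is not reported here, with no Trac and at most 1 CD3 UMI. CD4 T cells had Cd4 and no Cd8a or Cd8b1, CD8 or γδ T cells had no Cd4 and at least 1 UMI of Cd8a, Cd8b1 or Trdc, and other splits used 1 UMI, so a deeper cell passes more easily. Background classes needed 5 UMIs. In all, 743 and 1277 cells fell in no class.

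UMIs were summed per replicate and class and tested with edgeR 4.0.16 (quasi-likelihood, TMM, filterByExpr, two-sided, R 4.3.3) with the replicate as a block, because the classes of a replicate come from the same tagged cells. Correlations of the classes' deviations by replicate ran from 0.0849 to 0.222 over 10 class pairs. P-values were Benjamini-Hochberg adjusted over all genes tested, with calls at 0.05. CPM is UMIs per 1000000 UMIs of the class. The fit of 5 classes had 4 residual degrees of freedom and that of the ILC3 subsets had 2. The spread of each gene was drawn towards a trend over all genes, with median prior degrees of freedom of 54.4 and 29.7. The spread behind a p-value is thus mostly the shared one. On simulated counts for CD4 T cells with neither cytokine against ILC3s (8145 genes, 200 changed), 82% of 2-fold and 100% of 4-fold changes were recovered and 7 of 189 calls were false. The changed genes had a mean of at least 50 CPM, so these rates do not cover members at lower levels, such as Pdcd1 and Lag3. The simulated counts took their spread from the fitted trend and held no class difference beyond the 200 changed genes. The rates thus do not cover genes whose replicates differ more than that trend, or data in which many genes differ. Alternatives were DESeq2 1.42.0, its size factors, no filter, no block, other gates, thinning to 1000 UMIs and leaving out a replicate.

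The members and lists were chosen with earlier results of these data known. Named beside the 10 members are up to 2 genes per list and direction with the largest changes past the threshold, and 2 genes per member with the most similar pattern. Not every gene that the rule names is printed. Poisson and binomial 95% intervals, and the limits that a count of 0 allows, cover counting error only.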

Additional observations from a re-analysis of the deposited data

How the results depend on the processing

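Of 911 recomputed values of the 10 members, 745 were counted as the same, 58 lost a call, 7 gained one, 72 moved and 29 changed sign. In refits, the same means an unchanged direction and side of the threshold. Leaving out a replicate allows no test. Without replicates 1 and 2 in turn, 71 and 30 values were the same and 15 and 57 moved. The same there means nearer to the fit than the SD of the replicate ratios. A sign change was counted there only for called members. Pdcd1 in CD8 or γδ T cells against ILC3s, 0.94 in replicate 1 against a fit of -0.90, is thus not among the 29. The counts of members called for CD4 T cells, type 2 cells and Ifng CD4 T cells stayed within 1.5 times the reported count in every alternative fitted. For CD8 or γδ T cells against ILC3s the count was 6 and fell to 2 after thinning. For Ncr1 against Ccr6 ILC3s it was 3, with 1 without the replicate block and 0 with DESeq2, with other-lineage cells kept, without Foxp3 or Il2ra cells and with ILC3s free of CD3 and T cell receptor UMIs. For CD8 or γδ against CD4 T cells it was 5, with 1 without the block, 1 with DESeq2 and 0 with other-lineage cells kept. For type 2 against CD4 T cells it was 1, with 2 without a filter and 0 without the block, with DESeq2, with other-lineage cells kept and without Foxp3 or Il2ra cells. For type 2 T cells against those below the T cell gate it was 4, with 2 without the block, 2 with DESeq2 and 1 with other-lineage cells kept. The cause of these losses was not tested.

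Values that changed sign under these rules were log2 fold changes. Against ILC3s, thinning gave Tnfrsf9 0.39 in CD4 T cells and 1.18 in type 2 cells, and Tnfrsf4 -0.20 and Cd226 -0.085 in CD8 or γδ T cells. Tnfrsf18 in CD8 or γδ T cells was 0.0152 with the stricter ILC3 gate, and Irf4 there was -0.42 without replicate 2 and 2.04 without replicate 1. In type 2 cells Lag3 was -0.0697 without Foxp3 or Il2ra cells and Tnfrsf9 0.0615 with other-lineage cells kept. For Ifng CD4 T cells, Ctla4 was 0.0108 with DESeq2, 0.0134 with its size factors, 0.00111 with other-lineage cells kept, 0.0241 without Foxp3 or Il2ra cells and 0.10 after thinning. Cd28 there was -0.026 without a filter, -0.066 with a T cell gate of 5 UMIs, -0.20 with other-lineage cells kept, -0.13 without Foxp3 or Il2ra cells and -0.0939 after thinning, which also gave Icos -0.12, Tnfrsf18 -0.46 and Cd226 0.19. Tnfrsf9 was -0.69 for Ncr1 against Ccr6 cells with the stricter ILC3 gate and -0.28 in type 2 T cells with other-lineage cells kept. For CD8 or γδ against CD4 T cells, Cd226 was -0.00276 without a filter, -0.31 after thinning and -0.0664 without Foxp3 or Il2ra cells, and for type 2 against CD4 T cells Tnfrsf18 was -0.0723 after thinning. For plasma cells, Ctla4 was -0.31 without replicate 1 and 0.70 without replicate 2, and Tnfrsf4 was 0.14 with other-lineage cells kept and 0.0741 without Foxp3 or Il2ra cells. Among these, Tnfrsf4 and Irf4 in CD8 or γδ T cells against ILC3s and Ctla4 in plasma cells had been called.

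With 1 replicate left out there is no test, and values are log2 ratios of CPM. For Ncr1 against Ccr6 ILC3s they were -3.06 and -4.73 for Pdcd1, -0.72 and -1.09 for Ctla4, and 0.78 and 2.66 for Tnfrsf18, without replicates 1 and 2 in turn. The refit after thinning was not run for the ILC3 subsets, the plasma cells or the type 2 split, and no alternative was run for Il21 CD4 T cells, which could not be fitted. The replicate numbers pair the classes, and the block changed no call of a member in type 2 cells against ILC3s. Over all comparisons fitted, leaving out the block lost 12 calls of members and gained 1. Depth limits several members: in CD8 or γδ T cells of replicate 1, Pdcd1, Tigit and Tnfrsf9 had 1 UMI each, Tnfrsf4 had 2 and Lag3 had 0.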

Other observations

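Ligands of the 10 receptors were spread over other classes of the sorted cells, and are given here as levels without a test. Cd274, which encodes PD-L1, had 582 and 535 CPM in myeloid cells (28 and 32 cells), 381 and 352 CPM in plasma cells, 120 and 65.1 CPM in ILC3s and 67.2 and 36.3 CPM in stromal cells. Cd86, a ligand of CD28 and CTLA-4, had 349 and 406 CPM in myeloid cells and 12.5 and 5.50 CPM in ILC3s, and Cd80 had 46.6 and 54.2 CPM in myeloid cells. Icosl had 83.0 and 87.0 CPM in stromal cells and 33.4 and 39.1 CPM in ILC3s. Pvr, a ligand of TIGIT and CD226, had 144 and 27.1 CPM in myeloid cells, 42.8 and 54.0 CPM in stromal cells and 35.1 and 22.9 CPM in ILC3s. Tnfsf9, the ligand of 4-1BB, had 88.5 and 67.7 CPM in myeloid cells and 16.7 and 13.5 CPM in ILC3s, while Tnfsf4, the ligand of OX40, had 8.36 and 12.5 CPM in ILC3s.

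The genes most like each member over the 10 class sums of the main comparison, by Pearson r of log2 CPM centred on the replicate, are a description over sums that share replicates and depth. Cd28 was closest to Cd52 (r = 0.993) and Cd247 (0.991), Icos to Ppp1r12a (0.973) and Il12rb2 (0.966), and Ctla4 to Ppp1r12a (0.982) and Dynlrb1 (0.973). Tnfrsf4 was closest to Sh3kbp1 (0.984) and Furin (0.970), Tnfrsf18 to Hnrnpll (0.986) and Wdr44 (0.963), and Tigit to Rps14 (0.982) and Rps21 (0.975). Tnfrsf9 was closest to Clptm1 (0.955), Cd226 to Map3k1 (0.973), Pdcd1 to Stap1 (0.929) and Lag3 to Swap70 (0.868).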
